A study of Homo sapiens with 6 samples.

Results

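The genes described here encode 7 extracellular proteases, 1 protease receptor and 2 protease inhibitors: PLAU, PLAUR, PLAT, MMP1, MMP2, MMP14, TIMP1, TIMP2, HTRA1 and HTRA3. They were taken by gene symbol from the deposited count table, and all 10 were found among its 23827 genes. Polyadenylated RNA was sequenced from A549, an established human lung adenocarcinoma line, in 2 groups of 3 biological replicates. In the treated group 20 mM lactic acid was added to the medium for 24 h, and the control group received phosphate-buffered saline (PBS) in equal volume over the same time. Both groups were the same line, so differences between clones or lines were not addressed, and lactic acid adds lactate and protons together.

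Cells cut the matrix around them with secreted and membrane-bound proteases that are held in check by inhibitors. Urokinase (PLAU) and tissue-type plasminogen activator (PLAT) turn plasminogen into the broad protease plasmin, and the receptor PLAUR holds urokinase at the cell surface. Matrix metalloproteinases (MMPs) are zinc enzymes that cleave collagens and other matrix proteins, and tissue inhibitors of metalloproteinases (TIMPs) block them. HTRA1 and HTRA3 are secreted serine proteases of the HtrA family that cut matrix proteins and modulate growth factor signalling. In lung adenocarcinoma these systems are studied for their part in invasion.

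After lactic acid, MMP1 was 3.25-fold higher, HTRA1 1.27-fold higher, TIMP2 1.17-fold higher and PLAUR 1.16-fold higher, while HTRA3 was 2.69-fold lower and PLAT 1.86-fold lower. PLAU, MMP2, MMP14 and TIMP1 did not pass the test. Calls are an adjusted p under 0.05 in edgeR's quasi-likelihood test over all genes. The 4 rises and 2 falls made 60.0% of the 10 genes, and 35.4% of all 15474 tested genes were called, 18.7% higher and 16.7% lower. The median log2 fold change was 0.040 over the 10 genes and 0.0023 over all tested genes. All 10 passed the filter on low counts. The plot of levels in each library shows narrow shifts for PLAUR, TIMP2 and HTRA1 and wide ones for MMP1, PLAT and HTRA3.

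**Figure D1:**
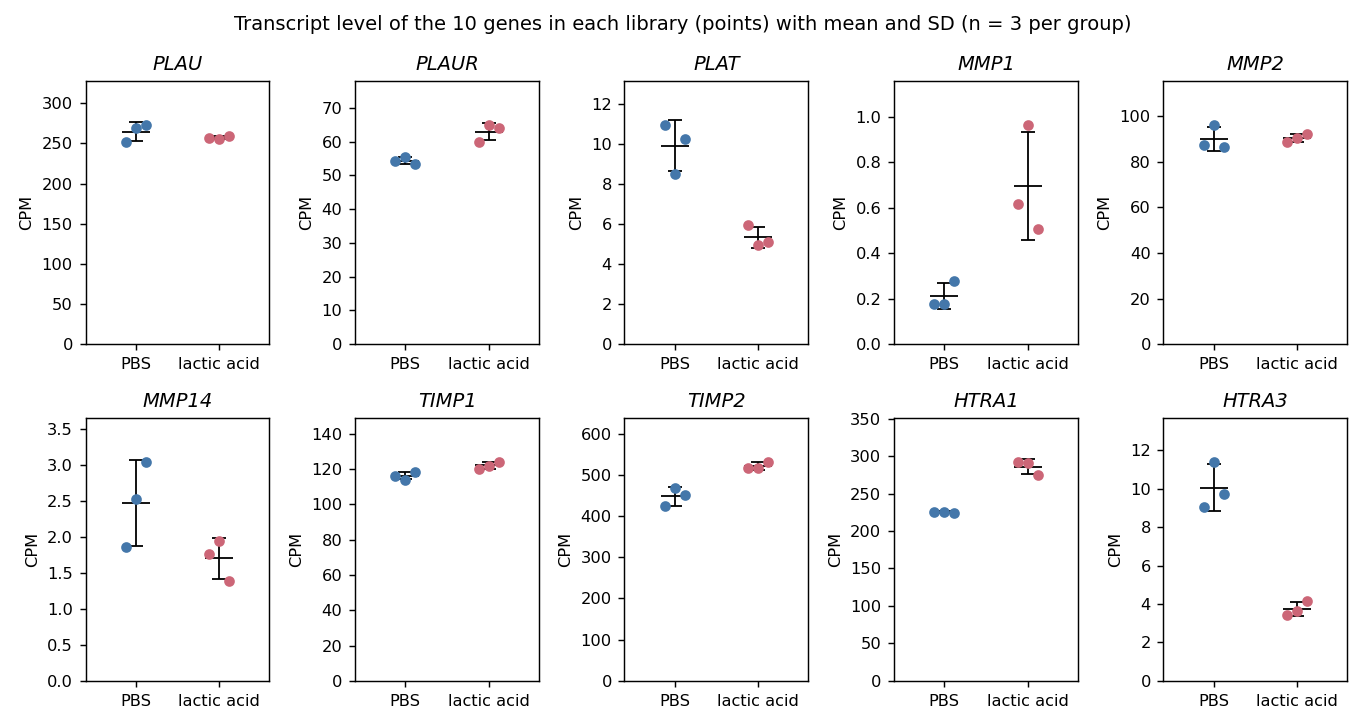
Counts per 1000000 counts (CPM, vertical axes, each starting at 0) of the 10 genes in the 3 PBS and 3 lactic acid libraries, as points, with the group mean and SD as bars. HTRA3 falls from 9.05 or more to 4.14 or less and PLAT from 8.50 or more to 5.95 or less, while PLAU and MMP2 overlap between groups.

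Totals over genes ran from 33492831 to 42938870 counts a library, 17744 to 18604 genes had any count, and mitochondrially encoded genes took 8.88% to 10.6%. Of 10 epithelial and A549 markers, all were counted, and their summed level was 11247 to 11730 CPM in PBS and 10072 to 10335 in lactic acid. This sum joins 4 markers called higher and 5 called lower. The leukocyte markers CD3E and LYZ and the endothelial marker CDH5 were at 0 in every library, where 0 counts allow up to 0.0705 to 0.0891 CPM (3 counts per library, counting error only). The highest gene of the leukocyte list was CD68, at 40.3 CPM in PBS and 30.9 in lactic acid. The 6 endothelial markers together stayed between 0.0594 and 0.505 CPM, with TEK at a mean of 0.165 CPM in PBS and 0.169 in lactic acid and PECAM1 at 0.0491 and 0.186. Fibroblast markers summed to 114 to 127 CPM in PBS and 81.4 to 88.9 in lactic acid, nearly all of it COL1A1 (112 and 79.7 CPM). POSTN was at 0 in every library and COL1A2 at 0 in 4 of 6. In bulk RNA, fewer cells of a type and less RNA per cell cannot be told apart.

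Per transcript length, using the deposited FPKM (fragments per kilobase of transcript and per 1000000 fragments), the 10 genes spanned from 0.0984 to 131 FPKM in PBS. HTRA1 (131 ± 5.89 FPKM, SD, n = 3), TIMP1 (123 ± 2.73) and TIMP2 (117 ± 6.83) stood at the top in PBS, and each overlapped its neighbour in the order. PLAU followed at 103 ± 3.12, PLAUR at 37.2 ± 0.446 and MMP2 at 22.8 ± 1.43, each apart from its neighbours. HTRA3 (3.91 ± 0.452) and PLAT (3.58 ± 0.493) overlapped, MMP14 lay at 0.669 ± 0.129, and MMP1 was lowest at 0.0984 ± 0.0265. In lactic acid the order was HTRA1 (155 ± 30.2), TIMP2 (133 ± 2.36), TIMP1 (126 ± 2.32), PLAU (101 ± 1.51), PLAUR (42.0 ± 2.81), MMP2 (22.3 ± 0.444), PLAT (1.82 ± 0.183), HTRA3 (1.44 ± 0.126), MMP14 (0.463 ± 0.135) and MMP1 (0.321 ± 0.110). There HTRA1 overlapped both TIMP2 and TIMP1, but only through the third library, at 120 FPKM. The count and FPKM of HTRA1 in that library do not match, as given below. MMP14 overlapped MMP1, and PLAT no longer overlapped HTRA3. TIMP2 and TIMP1 changed places between the groups, and so did HTRA3 and PLAT.

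**Figure D2:**
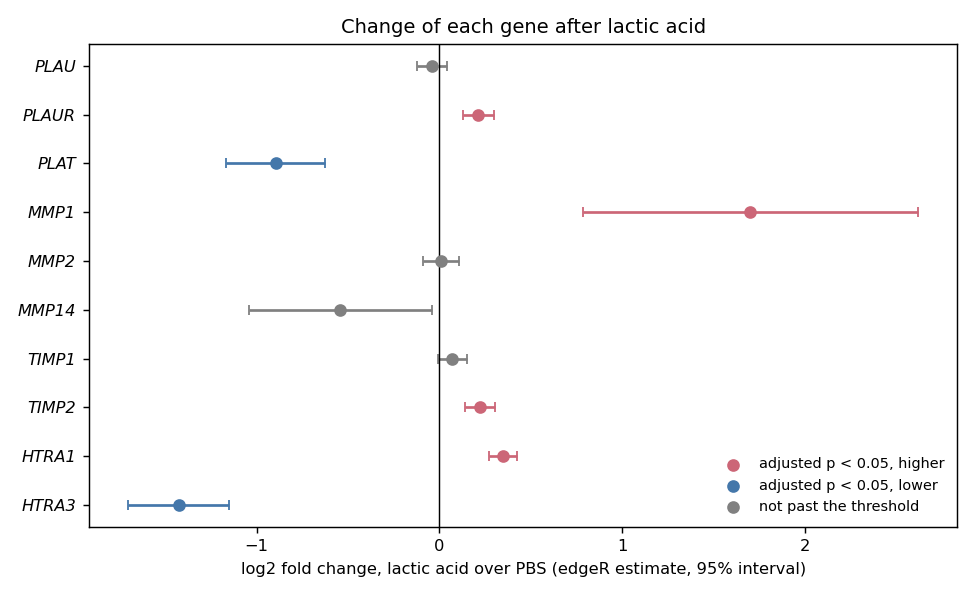
Log2 fold change of lactic acid over PBS for each of the 10 genes (horizontal axis), as the edgeR estimate with its 95% interval, coloured by whether the adjusted p passed 0.05. MMP1 lies farthest to the right with the widest interval, HTRA3 farthest to the left, and the intervals of PLAU, MMP2 and TIMP1 include 0.

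PLAU, the urokinase gene, is on the plus strand of chromosome 10 (positions 73909177 to 73917497 of GRCh38, as in GENCODE 29 for all loci given here). Its level was 252, 269 and 273 CPM in the PBS libraries and 257, 255 and 259 CPM in the lactic acid libraries. The groups overlapped, and the lactic acid libraries lay within the range of the PBS libraries. The fold change was 0.971, with a 95% interval from 0.918 to 1.03 and an adjusted p of 0.417 in edgeR. C10orf55, on the opposite strand of the same locus, held 34 to 67 counts a library beside 8533 to 10866 for PLAU.

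PLAUR, the urokinase receptor, is encoded on the minus strand of chromosome 19 (43646095 to 43670547). It measured 54.3, 55.5 and 53.3 CPM in PBS and 60.0, 64.9 and 63.9 CPM in lactic acid. Every lactic acid library was above every PBS library. The rise was 1.16-fold (95% interval 1.09 to 1.23, edgeR adjusted p = 0.00138). Set against its ligand within each library, the count ratio of PLAU to PLAUR changed by a factor of 0.840, a log2 difference of −0.25. Counts are not per length, so only the change of such a ratio is read. Its log2 values of 2.21, 2.28 and 2.36 in PBS did not overlap 2.10, 1.98 and 2.02 in lactic acid (exact permutation p = 0.10, two-sided, the smallest that 3 against 3 allows; adjusted p = 0.15 over 6 ratios compared, the 2 not reported counted as p = 1).

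The bases before the transcription start of PLAUR, HTRA1 and HTRA3 are shown because the receptor rose while its ligand did not pass the test, and because the HTRA genes moved in opposite directions. They are the 250 bases before the start (RefSeq, GRCh38.p14), read 5′ to 3′ along the gene. Capitals mark AP-1 motifs (TGANTCA), hypoxia element cores (ACGTG or GCGTG) and SP1 boxes (GGGCGG), searched on both strands, with overlapping matches counted separately.
PLAUR, chr19:43670170-43670419, minus strand: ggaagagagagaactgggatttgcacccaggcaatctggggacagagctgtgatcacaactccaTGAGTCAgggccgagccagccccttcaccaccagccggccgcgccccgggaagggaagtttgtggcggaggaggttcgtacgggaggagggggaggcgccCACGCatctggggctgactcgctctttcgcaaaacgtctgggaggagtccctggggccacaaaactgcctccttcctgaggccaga
HTRA1, chr10:122461303-122461552, plus strand: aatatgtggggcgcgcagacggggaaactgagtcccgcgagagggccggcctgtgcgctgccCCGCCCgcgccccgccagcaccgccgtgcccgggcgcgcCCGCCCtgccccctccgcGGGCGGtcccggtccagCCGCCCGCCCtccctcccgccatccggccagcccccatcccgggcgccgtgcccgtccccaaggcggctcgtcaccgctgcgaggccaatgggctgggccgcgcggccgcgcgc
HTRA3, chr4:8269504-8269753, plus strand: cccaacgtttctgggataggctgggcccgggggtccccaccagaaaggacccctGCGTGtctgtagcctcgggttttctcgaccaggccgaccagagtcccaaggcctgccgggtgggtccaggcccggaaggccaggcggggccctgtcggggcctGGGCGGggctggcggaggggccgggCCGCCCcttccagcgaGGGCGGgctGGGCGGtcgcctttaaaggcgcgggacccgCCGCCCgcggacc
The PLAUR window held 1 AP-1 motif, 1 hypoxia element core and no SP1 box. The HTRA1 window held 5 SP1 boxes and neither of the other motifs, and the HTRA3 window 5 SP1 boxes and 1 hypoxia element core. Among 35116 such windows, 6.57% held an AP-1 motif, 43.2% a hypoxia element core and 42.6% an SP1 box. A match describes the letters of the window and is no evidence of binding. Windows were matched by symbol for 6 of the 10 genes, namely these 3 and PLAU, MMP14 and TIMP1. No window of the latter 3 genes held an AP-1 motif. Each of these genes had a window that held both a hypoxia element core and an SP1 box. PLAT, MMP1, MMP2 and TIMP2 were not matched.

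PLAT, the tissue-type plasminogen activator, is encoded on the minus strand of chromosome 8 (42175233 to 42207724). It measured 11.0, 8.50 and 10.3 CPM in PBS and 5.95, 4.96 and 5.10 CPM in lactic acid. All lactic acid libraries were below all PBS libraries. The fall was 1.86-fold (95% interval 1.54 to 2.25, edgeR adjusted p = 0.000183), from 286 to 408 counts a library to 191 to 212. It was called lower under every alternative run.

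MMP1, the interstitial collagenase, is encoded on the minus strand of chromosome 11 (102789920 to 102798160). Its counts were 6, 6 and 11 after PBS and 22, 41 and 19 after lactic acid, which is 0.177, 0.178 and 0.277 CPM against 0.618, 0.964 and 0.507 CPM. Each lactic acid library was above each PBS library, and the second lactic acid library was the highest. The rise was 3.25-fold, with a wide 95% interval from 1.72 to 6.14 (edgeR adjusted p = 0.00792). Without the second lactic acid library the log2 fold change was 1.38 instead of 1.70 and the adjusted p 0.0505, and MMP1 was then not called. A larger absolute log2 fold change was found for 0.517% of tested genes. The locus lies inside WTAPP1, a transcribed pseudogene of the opposite strand that was not analysed here, and since the strand setting of the counting is not given, reads of the pair cannot be told apart.

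MMP2, gelatinase A, is encoded on the plus strand of chromosome 16 (55389700 to 55506691). It was 87.2, 96.1 and 86.4 CPM in PBS and 88.7, 90.3 and 92.2 CPM in lactic acid. The lactic acid libraries lay within the range of the PBS libraries. Its fold change was 1.01, with a 95% interval from 0.940 to 1.08 and an edgeR adjusted p of 0.905.

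MMP14, the membrane-anchored MT1-MMP that activates the MMP2 precursor, is encoded on the plus strand of chromosome 14 (22836557 to 22849027). It stood at 1.86, 2.52 and 3.05 CPM in PBS and 1.77, 1.95 and 1.39 CPM in lactic acid, and the groups overlapped through the first PBS library. The fold change was 0.687 (95% interval 0.486 to 0.972), and the edgeR adjusted p of 0.0878 missed the threshold. Without the first PBS library the log2 fold change was −0.71 and the adjusted p 0.0316. In the other 14 of 15 alternatives MMP14 was not called, with adjusted p up to 0.300.

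TIMP1 is encoded on the plus strand of chromosome X (47582313 to 47586789), inside the span of SYN1, a gene of the opposite strand that held 3 to 17 counts a library. It measured 116, 114 and 118 CPM in PBS and 120, 122 and 124 CPM in lactic acid. The groups did not overlap, but the fold change of 1.05 (95% interval 0.995 to 1.11) had an edgeR adjusted p of 0.145. Groups did not overlap in 47.5% of all tested genes.

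TIMP2, which blocks several MMPs and also bridges MMP14 and the MMP2 precursor, is encoded on the minus strand of chromosome 17 (78852977 to 78925387). It was at 424, 468 and 451 CPM in PBS and at 516, 517 and 532 CPM in lactic acid. The lowest lactic acid library was above the highest PBS library. The rise was 1.17-fold (95% interval 1.10 to 1.23, edgeR adjusted p = 0.000767), and it was called higher under every alternative run.

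The count ratios of MMP2, MMP14 and TIMP1 to TIMP2 were each lower in every lactic acid library than in every PBS library, although none of these 3 genes passed the test by itself. The 3 ratios share TIMP2, which was itself called higher, so they do not stand apart from its rise or from each other. The MMP2 to TIMP2 count ratio changed by a factor of 0.863 (log2 difference −0.21), with log2 ratios of −2.28, −2.28 and −2.38 in PBS and −2.54, −2.52 and −2.53 in lactic acid. The log2 difference of the MMP14 to TIMP2 ratio was −0.75, and that of TIMP1 to TIMP2 −0.15. For MMP14 the log2 ratios were −7.83, −7.53 and −7.21 in PBS and −8.19, −8.05 and −8.58 in lactic acid. By itself MMP14, which was not called, had a log2 fold change of −0.54, and TIMP2 had 0.22. None of these 3 ratios overlapped between groups, and each had an exact permutation p of 0.10, which is the smallest possible (adjusted p = 0.15, counted in the same way). Single genes did not overlap in 47.5% of all tested genes, and no such share was computed for ratios. A ratio within a library does not depend on how libraries are scaled, but it shows unequal change and not which gene changed.

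**Figure D3:**
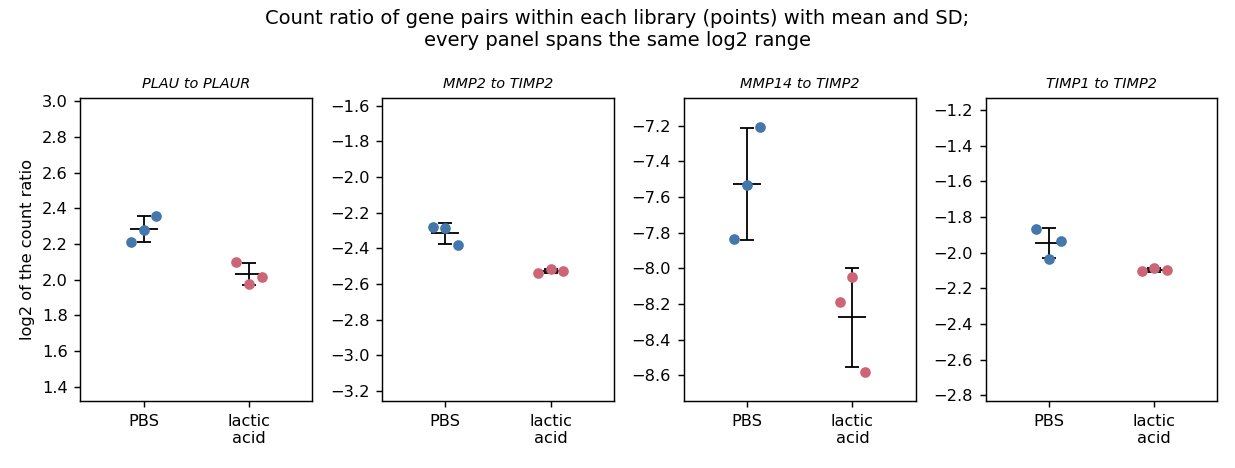
Log2 of the count ratio of 4 gene pairs (vertical axes, all spanning the same range) in each PBS and lactic acid library, as points, with mean and SD as bars. All 4 ratios are lower in every lactic acid library than in every PBS library, and every pair but PLAU to PLAUR shares TIMP2.

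HTRA1 is encoded on the plus strand of chromosome 10 (122458551 to 122514908). It was 225, 226 and 224 CPM in PBS and 293, 291 and 274 CPM in lactic acid. All lactic acid libraries were above all PBS libraries, and the third was the lowest of them. The rise was 1.27-fold (95% interval 1.21 to 1.34, edgeR adjusted p = 1.57e-05).

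The deposited FPKM table did not carry this rise in every library. HTRA1 was at 134, 125 and 135 FPKM in PBS and at 174, 170 and 120 FPKM in lactic acid, so the third lactic acid library was the lowest of all 6. The length implied by that library's count and FPKM was 134% of the median of the other 5 libraries. On log2(FPKM + 1) with limma-trend the log2 fold change was 0.22 and the adjusted p 0.222, against 0.35 on counts. The cause of the mismatch between the tables was not tested. For MMP14 the implied length also varied, to 83.2% in the first PBS library and 79.6% in the second lactic acid library, while in the other 8 genes it stayed between 93.8% and 106%.

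**Figure D4:**
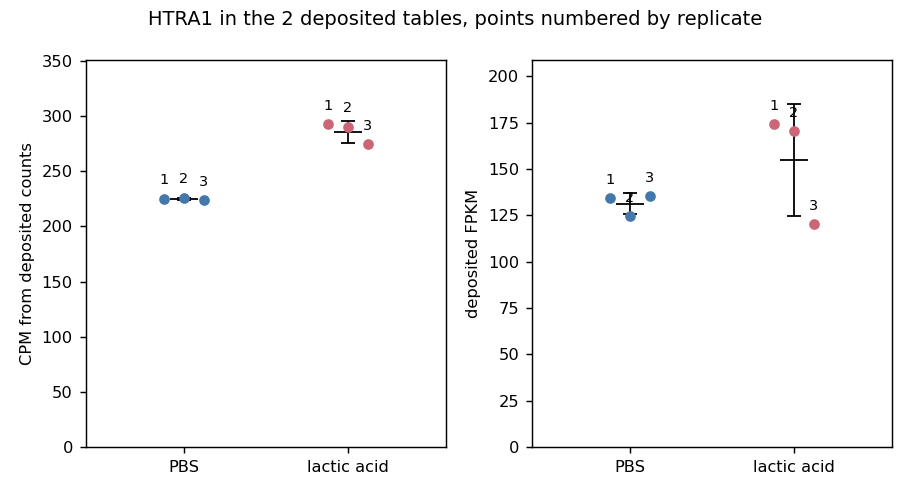
HTRA1 in each library as CPM from the deposited counts (left) and as deposited FPKM (right), with points numbered by replicate, group mean and SD as bars, and axes from 0. In CPM the 3 lactic acid libraries lie at 274 to 293, above PBS at 224 to 226, whereas in FPKM the third lactic acid library lies at 120, below the PBS libraries.

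HTRA3 is encoded on the plus strand of chromosome 4 (8269765 to 8307111). It showed 9.05, 11.4 and 9.70 CPM in PBS and 3.43, 3.64 and 4.14 CPM in lactic acid, from 307 to 385 and 122 to 155 counts. The groups were far apart, with the highest lactic acid library below the lowest PBS library. The fall was 2.69-fold (95% interval 2.22 to 3.25, edgeR adjusted p = 5.74e-06), and 0.924% of tested genes had a larger absolute log2 fold change. It was called lower under every alternative run, from −1.01 to −1.51 on the log2 scale. Beside this fall, 4 of 5 tested fibroblast markers were also lower (80.0%, against 16.7% of all tested genes), among them COL1A1 (1.41-fold) and LUM (1.61-fold, 6.42 ± 0.254 to 3.98 ± 0.0427 CPM). The other marker falls were of scarce genes, COL3A1 (1.07 to 0.466 CPM) and DCN (1.54 to 0.750 CPM). The remaining tested marker, PDGFRA, was not called (edgeR adjusted p = 0.596). In the same fit 5 of 10 epithelial and A549 markers fell and 4 rose. All libraries were of the A549 line, and any link between the marker falls and those of HTRA3 and PLAT was not tested. The fibroblast markers COL1A2 and POSTN were near or at 0, as given above.

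Other genes of pericellular proteolysis were read from the same fit, in 6 lists of 83 genes. All 83 were in the table, 10 were at 0 in every library, and 53 passed the filter. Of these, 10 were higher and 14 lower, which is 45.3% against 35.4% of all tested genes, with a median log2 fold change of −0.035. In the list for the plasmin system, which also holds clotting genes such as TFPI, 5 of 11 tested genes rose and 2 fell. That is 63.6% called against 35.4% of all tested genes, with a median log2 fold change of 0.11. TFPI, an inhibitor of the tissue factor pathway of clotting, rose 1.87-fold from 96.1 ± 5.61 to 180 ± 2.67 CPM (edgeR adjusted p = 6.44e-08). TFPI2, a Kunitz-type inhibitor of plasmin and other serine proteases, rose 1.24-fold, and on log2(FPKM + 1) its adjusted p was 0.134. ANXA2, an annexin that binds plasminogen at the cell surface, rose 1.10-fold, and on unfiltered log2(FPKM + 1) its adjusted p was 0.127. LRPAP1, the chaperone of LRP1, rose 1.16-fold. On log2(FPKM + 1) the change of LRPAP1 was −0.017, so its direction differed between the tables. The remaining rise was of SERPINE2, 1.13-fold from 209 ± 7.38 to 236 ± 2.27 CPM (edgeR adjusted p = 0.00242). The falls were of PLGRKT, a plasminogen receptor (1.37-fold, edgeR adjusted p = 0.00256), and of LRP1, an endocytic receptor that clears protease and inhibitor complexes (1.11-fold, edgeR adjusted p = 0.0207). The LRP1 call was lost under all 3 FPKM fits and without PBS replicate 2 or 3 or lactic acid replicate 1 or 2, with adjusted p between 0.0504 and 0.107. The plasminogen gene PLG had 3 counts in 1 library and 0 in the others.

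Among 9 tested metalloproteinases outside the 10 genes, 1 rose and 2 fell (33.3% called against 35.4% of all tested genes, median log2 fold change −0.16). MMP15, a membrane-type enzyme related to MMP14, rose 1.51-fold from 23.4 ± 0.690 to 35.3 ± 3.48 CPM (edgeR adjusted p = 4.59e-05). MMP17, a GPI-anchored enzyme, fell 1.47-fold from 11.6 ± 0.893 to 7.89 ± 0.819 CPM, and MMP25, also GPI-anchored, 1.80-fold from 1.94 ± 0.511 to 1.07 ± 0.241. The MMP25 call was lost when PBS replicate 3, lactic acid replicate 1 or lactic acid replicate 3 was left out, with adjusted p between 0.0719 and 0.120. It was also lost on unfiltered log2(FPKM + 1) (limma-trend adjusted p = 0.0782). MMP7, matrilysin, had a fold change of 1.23 and an adjusted p of 0.0528, and over the alternatives this p ran from 0.0238 without PBS replicate 2 to 0.192 without PBS replicate 3. It was under the threshold with DESeq2, limma-voom and the replicate block too.

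Inhibitors and activators of metalloproteinases other than TIMP1 and TIMP2 included no rise and 5 falls among 11 tested genes (45.5% called against 35.4% of all tested genes, median log2 fold change −0.13). TIMP3, the matrix-bound family member, fell 1.67-fold from 4.68 ± 0.724 to 2.82 ± 0.513 CPM, and TIMP4 fell 1.33-fold from 10.9 ± 0.903 to 8.14 ± 0.487. FURIN, a proprotein convertase that activates MMP14, fell 1.27-fold (161 ± 8.87 to 126 ± 2.36 CPM, edgeR adjusted p = 8.97e-05), and the related PCSK7 1.23-fold. TIMP2 rose while TIMP3 and TIMP4 fell.

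HTRA2, the mitochondrial family member, did not pass the test (log2 fold change −0.13, adjusted p = 0.0934), and HTRA4 had 2 counts in 1 library and 0 in the others. Among 14 tested ADAM and ADAMTS genes, 4 rose and 4 fell (57.1% called against 35.4% of all tested genes, median log2 fold change 0.029). The sheddases ADAM17 and ADAM10 rose 1.26-fold and 1.11-fold, and ADAM12 1.22-fold, while ADAMTS6 fell 1.46-fold. On unfiltered log2(FPKM + 1) ADAM12 was not called (limma-trend adjusted p = 0.0504). Of 7 tested surface and secreted serine proteases and inhibitors, 1 fell (14.3% called against 35.4% of all tested genes, median log2 fold change 0.019). This was SPINT2, a membrane-bound Kunitz inhibitor, at 193 ± 2.58 CPM in PBS and 149 ± 2.30 in lactic acid (1.30-fold, edgeR adjusted p = 6.54e-06). FAP, a membrane protease, SPINT1 and PRSS23 had adjusted p-values of 0.389, 0.539 and 0.648.

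**Figure D5:**
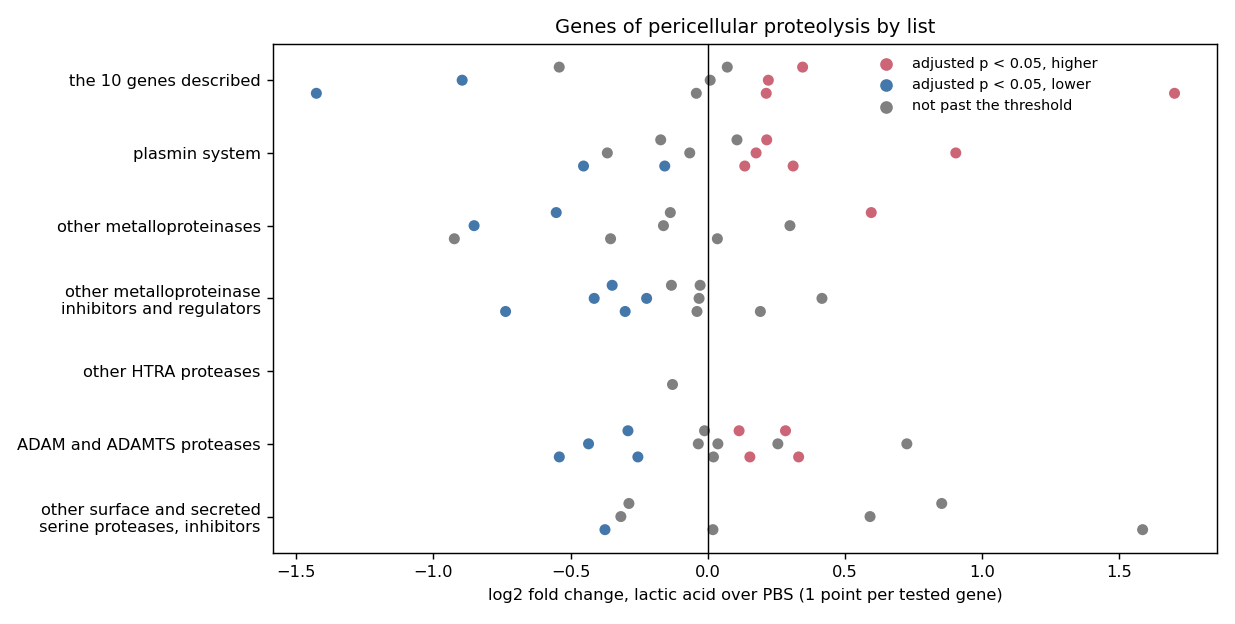
Log2 fold change of lactic acid over PBS (horizontal axis) for every tested gene, 1 point per gene, of the 10 genes and the 6 related lists (rows), coloured by call. Among called genes of the related lists TFPI lies farthest right, at 0.90, and MMP25 farthest left, at −0.85, and over all tested genes 18.7% were called higher and 16.7% lower.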

How the data were processed

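RNA was taken from A549 cells with TRIzol, enriched for poly(A) transcripts with oligo(dT) beads and sequenced as read pairs, per the labels' protocols. The authors deposited whole-number counts and FPKM per gene for 6 libraries. Per the submitters' processing notes, HISAT2, StringTie, DESeq2 and GRCh38 were used, with roles and strand setting not given in the sources used here, so overlapping genes may share reads. Columns were matched through library names in the labels, which carry the tables' NS and LAC prefixes; the labels also call the control columns WT, a name the tables do not use.

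The whole count table was fitted with edgeR 4.0.16 in R 4.3.3 (quasi-likelihood F test, two-sided, TMM factors 0.988 to 1.02, group only), after filterByExpr with a minimum count of 10 and total of 15. Benjamini-Hochberg adjustment ran over 15474 genes, and calls are adjusted p under 0.05. CPM are counts per 1000000 of the TMM-scaled library, and 95% intervals use the t distribution. The test was also run on simulated counts, with results that are not given here. Replicates differed beyond counting noise (chi-square 6.03 to 8.68 per degree of freedom).

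Members and lists were chosen with earlier results of these data known. The rule named the 10 members, both genes of a list of 2, up to 4 genes of each other related list in order of p (mean CPM 1 or more), and the highest and absent marker genes. PLG, PLGRKT, LRP1, SERPINE2, PECAM1, COL1A2, COL3A1, DCN, LUM and the genes of the closing observations were named after their values were seen. One gene of the lists and its ratios are not reported here. Alternatives were RLE factors, library totals, DESeq2 1.42.0, limma-voom, limma-trend (limma 3.58.1) on log2(FPKM + 1) or log2(FPKM + 0.1) after requiring FPKM 1 in 3 libraries, the former also unfiltered, no count filter, 50 counts in 3 libraries, a replicate block, and each library left out. Summing overlapping genes was added after seeing the data.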

Additional observations from a re-analysis of the deposited data

How the results depend on the processing

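The 2 falls among the 10 genes were found in all alternatives, and MMP14 was called lower only without the first PBS library. The 4 rises became 2 under each of the 3 FPKM fits, where HTRA1 missed the threshold (adjusted p 0.222, 0.223 and 0.380). In the filtered FPKM fits MMP1 was below the filter. With no FPKM filter MMP1 was called higher (limma-trend adjusted p 0.0358) and PLAUR missed the threshold (0.0682). The rises became 3 with 50 counts in 3 libraries, which leaves out MMP1. Leaving out each library gave 3 to 4 rises and 2 to 3 falls among the 10 genes, 2362 to 2578 rises and 2141 to 2402 falls over all genes, and 9 to 12 rises and 11 to 13 falls among related genes. Over all genes, rises were 2892 in the reported fit, 1803 and 1798 on log2(FPKM + 1) and log2(FPKM + 0.1) and 1618 with no FPKM filter, where related genes rose in 5 cases instead of 10. The cause was not tested.

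Values near 0 changed sign for MMP2 and PRSS23. MMP2 was −0.013 with library totals, −0.027 and −0.028 on the filtered FPKM scales, −0.027 unfiltered, and −0.024 to 0.054 with a library left out. PRSS23 was −0.0028 with library totals and −0.0017 to 0.025 with a library left out. On the FPKM scales it was 0.35, where the first PBS library was at 118 FPKM and the other 5 at 239 to 251. LRPAP1 was not near 0 on counts, where it was called higher at 0.21, but was −0.017, −0.016 and −0.017 on the FPKM scales. Its PBS libraries were at 5.49, 6.02 and 8.51 FPKM, against 60.3, 61.4 and 61.8 CPM. The cause of this mismatch was not tested. Same-numbered libraries showed little shared deviation (r = 0.028, −0.026 and 0.058), and other pairs ran from −0.073 to 0.044. So few libraries cannot exclude a pairing, and the reported fit used none. With the replicate block 2886 genes rose and 2596 fell, and the 10 genes had 4 rises and 2 falls. MMP1 and MMP14 had 6 to 121 counts a library, and counting error was not separated from replicate spread.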

Other observations

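Several scarce metalloproteinases did not pass the test or the filter on low counts, and the genes here were chosen after their values were seen. MMP9, gelatinase B, had 22, 31 and 35 counts in PBS and 17, 24 and 9 in lactic acid, a log2 fold change of −0.92 with an edgeR adjusted p of 0.0718. MMP10, a stromelysin, had 4, 12 and 7 counts in PBS and 2, 3 and 4 in lactic acid and did not pass the filter. MMP13, another collagenase, had 0, 0 and 4 counts in PBS and 4, 5 and 7 in lactic acid, and did not pass it either. DPP4, a membrane peptidase, had 0, 5 and 16 counts in PBS and 16, 32 and 20 in lactic acid (edgeR adjusted p = 0.0875). Of 14 alternatives 2 called it, with an adjusted p of 0.0345 in limma-voom and 0.0191 without PBS replicate 3. In the other 12 it was not called, with adjusted p up to 0.246.

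Of 10 epithelial and A549 markers, 4 rose (KRT19, AKR1B10, AKR1C1 and NQO1) and 5 fell (KRT7, KRT18, EPCAM, CDH1 and ALDH1A1), beside 35.4% called over all tested genes. CDH1, which encodes E-cadherin, fell from 20.1 ± 2.00 to 11.8 ± 0.381 CPM and KRT7, a keratin, from 1850 ± 32.8 to 1293 ± 9.67 CPM. EPCAM, an adhesion protein, fell 2.01-fold. AKR1C1, an aldo-keto reductase with near-identical relatives, whose count is therefore uncertain, rose 1.81-fold, and KRT19 rose from 62.5 ± 1.61 to 71.0 ± 3.42 CPM. On unfiltered log2(FPKM + 1) KRT19 was not called (limma-trend adjusted p = 0.0599).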
